A study of Saccharomyces cerevisiae S288C and Saccharomyces paradoxus NRRL Y-17217 and Saccharomyces mikatae IFO 1815 with 8 samples.

Results

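The expression of the genes of Saccharomyces mikatae was set against that of the same genes in Saccharomyces cerevisiae, baker's yeast. Of 6599 genes annotated in S. cerevisiae, 3696 were measured: they were listed once in both species, had a coding length in S. mikatae within 0.9 to 1.1 times that in S. cerevisiae, and at least 90% of their reads had a single position in the genome in each of the 4 libraries. The S. mikatae strain was IFO1815 and the S. cerevisiae strain was a wild-type S288c diploid made by crossing FY4 and FY5, with 2 cultures of each species. According to the study's Methods all strains were diploid, the cultures were started from separate isolates, and the cells were taken in exponential growth in SD, a minimal glucose medium without amino acids, whereas the labels name complete media. Which medium applies is not settled here. Libraries that keep strand were made from RNA depleted of ribosomal RNA, and each was aligned to its own species' genome. Replicate 1 of both species was prepared on one day and replicate 2 on another. Each species is represented by 1 strain, so strain and species cannot be told apart, and the S. mikatae genome used for alignment was a draft assembly.

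Both yeasts ferment glucose in preference to other carbon sources, and keep the genes for respiration of other carbon sources, for breakdown of fatty acids in the peroxisome and for uptake of poor nitrogen sources low while a preferred source is present. Transporters at the cell surface, regulators of the pathways behind them, and vitamin and amino acid synthesis genes respond to what the medium lacks. Genes that define mating type are repressed in diploids, where the a1 and alpha2 proteins act together.

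The measured genes held 4919366 and 5331436 uniquely aligned reads in S. mikatae replicates 1 and 2, against 2893469 and 7367061 in S. cerevisiae replicates 1 and 2. The library with the fewest reads, S. cerevisiae replicate 1, still had 10 or more reads for 3494 of the genes. In total, 3612 genes with at least 10 reads in at least 2 libraries were tested with edgeR's quasi-likelihood test, with terms for species and replicate number and Benjamini-Hochberg adjustment over all of them. Levels are given as CPM, a gene's uniquely aligned reads scaled to library size on the measured genes with TMM factors, replicate 1 first. Differences are given as the fitted log2 fold change with its standard error, positive where S. mikatae was higher. The standard error is the absolute log2 fold change divided by the square root of the test's F statistic. It therefore rests mostly on the spread shared among genes and little on a gene's own replicates. At an adjusted p under 0.05, 1013 genes differed between the species, which is 28.0% of those tested, with 519 higher in S. mikatae (14.4%) and 494 lower (13.7%). With total counts in place of TMM scaling the median log2 fold change of all genes was 0.13, and 430 genes were higher and 259 lower. These shares with TMM are the background against which the counts of gene groups are read. The groups were chosen with earlier results of these data known, so these comparisons are descriptions. Of the 972 tested members of all groups 323 were called. The median log2 fold change of all tested genes was 0.00, and the 25th and 75th percentiles were -0.69 and 0.70.

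The count of differentially expressed genes depends on how the spread is estimated, because 4 libraries with a term for the replicate number leave 1 residual degree of freedom per gene. Without that term 230 genes passed, 6.37% of those tested, and every one of these also passed with it. The weight given to the spread shared among genes, edgeR's prior degrees of freedom, was 72.9 in the fit reported here and 7.46 without the replicate term. On the 2692 genes measurable in all 4 species of the study, the same 4 libraries and terms gave 396 calls. Leaving out a library, which removes the replicate term as well, gave 43 calls without S. mikatae replicate 1, 130 without S. mikatae replicate 2, 267 without S. cerevisiae replicate 1 and 217 without S. cerevisiae replicate 2. Of all tested genes 2695 (74.6%) differed in the same direction on both days, and of the 1013 called genes 1012 did. The exception was LDO45, named after its values were seen, whose log2 ratio was -0.11 on the day of replicate 1 and 4.36 on the day of replicate 2. A description that needs no estimate of spread gave 167 genes with at least a 4-fold difference in the same direction on both days (4.62% of tested genes), 104 higher in S. mikatae and 63 lower. All 167 were among the 1013, which is no separate support, since both rest on the same 4 libraries. The libraries of the species did not overlap in 2053 tested genes (56.8%), and in 971 of the 1013.

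**Figure D1:**
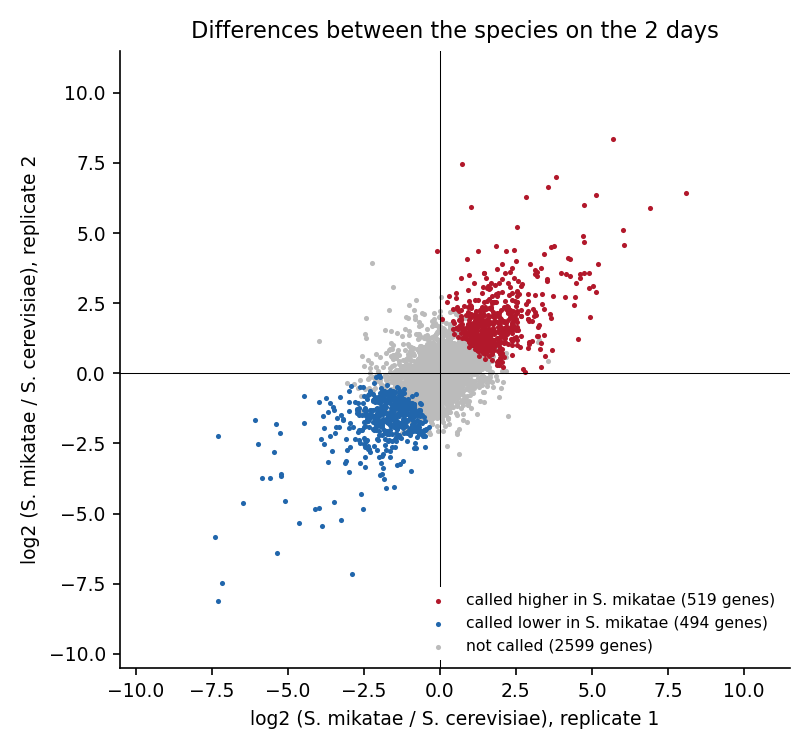
Each point is 1 of the 3612 tested genes, with the log2 ratio of S. mikatae over S. cerevisiae between the replicate 1 libraries on the x axis and between the replicate 2 libraries on the y axis, 0.5 added to every count. Most genes called higher (519, red) lie in the upper right and most called lower (494, blue) in the lower left, and 1 called gene, LDO45, lies on opposite sides of 0 on the 2 days.

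Replicates of one species differed widely for single genes. The log2 ratio of replicate 2 over replicate 1 had an SD of 0.82 across genes in S. mikatae and 0.96 in S. cerevisiae, while the log2 ratio between the species had an SD of 1.34 on the day of replicate 1 and 1.30 on that of replicate 2. Across the tested genes the log2 ratios between the species on the 2 days had a Pearson correlation of 0.72, given as a description, since genes are not independent replicates. Few small differences passed the test: 26 of 2396 genes under 2-fold were called, against 688 of 913 between 2-fold and 4-fold, 213 of 217 between 4-fold and 8-fold and 86 of 86 beyond that.

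Among the genes with the highest fold changes, several encode enzymes of carbon and nitrogen metabolism. DAK2, a dihydroxyacetone kinase (chromosome VI, 23423 to 25198 in build sacCer2), had 399 and 4074 CPM in S. mikatae, against 7.51 and 12.5 CPM in S. cerevisiae, with a log2 fold change of 7.18 ± 0.52 and an adjusted p of 3.34e-19. Its level in S. mikatae replicate 2 was far above that in replicate 1, and both were far above both S. cerevisiae libraries. AGX1, the alanine-glyoxylate aminotransferase that makes glycine, had 3564 and 2502 CPM in S. mikatae, against 54.9 and 71.6 CPM in S. cerevisiae (log2 fold change 5.57 ± 0.42, adjusted p = 1.64e-18), and its replicates lay close together in both species. POT1, the thiolase of peroxisomal fatty acid breakdown, had 67.4 and 52.9 CPM in S. mikatae, against 0.376 and 0.823 CPM in S. cerevisiae, and its log2 fold change was 6.37 ± 0.64 with an adjusted p of 1.03e-12. The S. cerevisiae values of POT1 rest on 1 and 6 reads. YJL218W, a putative acetyltransferase, had 51.4 and 41.2 CPM in S. mikatae, against 0 and 0.412 CPM in S. cerevisiae (log2 fold change 7.17 ± 0.76).

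Of the 15 highest genes 4 carry only locus names, YJL218W, YMR027W, YJR154W and YKL107W. YMR027W had 11056 and 6619.6 CPM in S. mikatae, against 168 and 278 CPM in S. cerevisiae, with a log2 fold change of 5.30 ± 0.38. YJR154W had 781 and 1346 CPM in S. mikatae, against 28.9 and 21.1 CPM in S. cerevisiae, and its log2 fold change was 5.38 ± 0.45. In YMR027W and YJR154W both S. mikatae libraries stood far above both S. cerevisiae libraries. The other genes of the highest 15 are SNO1, MHT1, PAI3, SRT1, YKL107W, FAR1, PEX18, CRC1 and MF(ALPHA)2, with log2 fold changes between 4.19 and 7.90. PEX18, which helps import thiolase into the peroxisome, had 25.2 and 33.4 CPM in S. mikatae, against 1.13 and 1.92 CPM in S. cerevisiae (adjusted p = 4.89e-07). CRC1, the carnitine carrier of the mitochondrion, differed mainly on one day, with 7.23 and 203 CPM in S. mikatae, against 3.38 and 3.29 CPM in S. cerevisiae. PAI3, an inhibitor of the vacuolar proteinase A, had 15 and 33.2 CPM in S. mikatae, against 0.376 and 1.24 CPM in S. cerevisiae. SRT1, a cis-prenyltransferase of dolichol synthesis, had 6.64 and 5.33 CPM in S. mikatae, against 0.751 and 0 CPM in S. cerevisiae and was not called without the replicate term.

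The lowest genes hold membrane transporters, regulators and stress genes. GAP1, the general amino acid permease (chromosome XI, 514705 to 516513 in sacCer2), had 21.3 and 21.8 CPM in S. mikatae, against 3554 and 1247 CPM in S. cerevisiae, a log2 fold change of -6.61 ± 0.46 with an adjusted p of 1.35e-19. The S. mikatae libraries were almost equal, and both S. cerevisiae libraries stood far above them. QDR2, a multidrug transporter of the plasma membrane, had 7.04 and 7.64 CPM in S. mikatae, against 626 and 192 CPM in S. cerevisiae (log2 fold change -5.55 ± 0.51). YHB1, a flavohaemoglobin that detoxifies nitric oxide, had 6.06 and 6.57 CPM in S. mikatae, against 211 and 156 CPM in S. cerevisiae, and its log2 fold change was -4.84 ± 0.50 with an adjusted p of 1.73e-12. YDL124W, an alpha-keto amide reductase, had 36.2 and 55.4 CPM in S. mikatae, against 1733 and 743 CPM in S. cerevisiae (log2 fold change -4.66 ± 0.44). In each of these genes both S. cerevisiae libraries were above S. mikatae, which the choice of genes by fold change favours. The S. cerevisiae libraries of GAP1, QDR2 and YDL124W lay far apart.

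GAC1, which targets protein phosphatase 1 to glycogen synthase, had 7.04 and 10.1 CPM in S. mikatae, against 177 and 412 CPM in S. cerevisiae, with a log2 fold change of -5.00 ± 0.50. THI4, which makes the thiazole of thiamine, had 0.391 and 4.08 CPM in S. mikatae, against 27.8 and 54.8 CPM in S. cerevisiae (log2 fold change -4.46 ± 0.61). HSP12, a small membrane protein of stressed cells, had 0.977 and 58.2 CPM in S. mikatae, against 168 and 276 CPM in S. cerevisiae. The HSP12 libraries of S. mikatae lay far apart, both below S. cerevisiae, and the gene was not called without the replicate term. GIT1, the glycerophosphoinositol permease, had 2.35 and 4.97 CPM in S. mikatae, against 106 and 35.5 CPM in S. cerevisiae (adjusted p = 1.46e-08). YMR262W had 4.3 and 3.37 CPM in S. mikatae, against 69.5 and 96.7 CPM in S. cerevisiae, and the other lowest genes were PRM5, RME1, DAL4, SPS1, STE4 and TMA7.

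**Figure D2:**
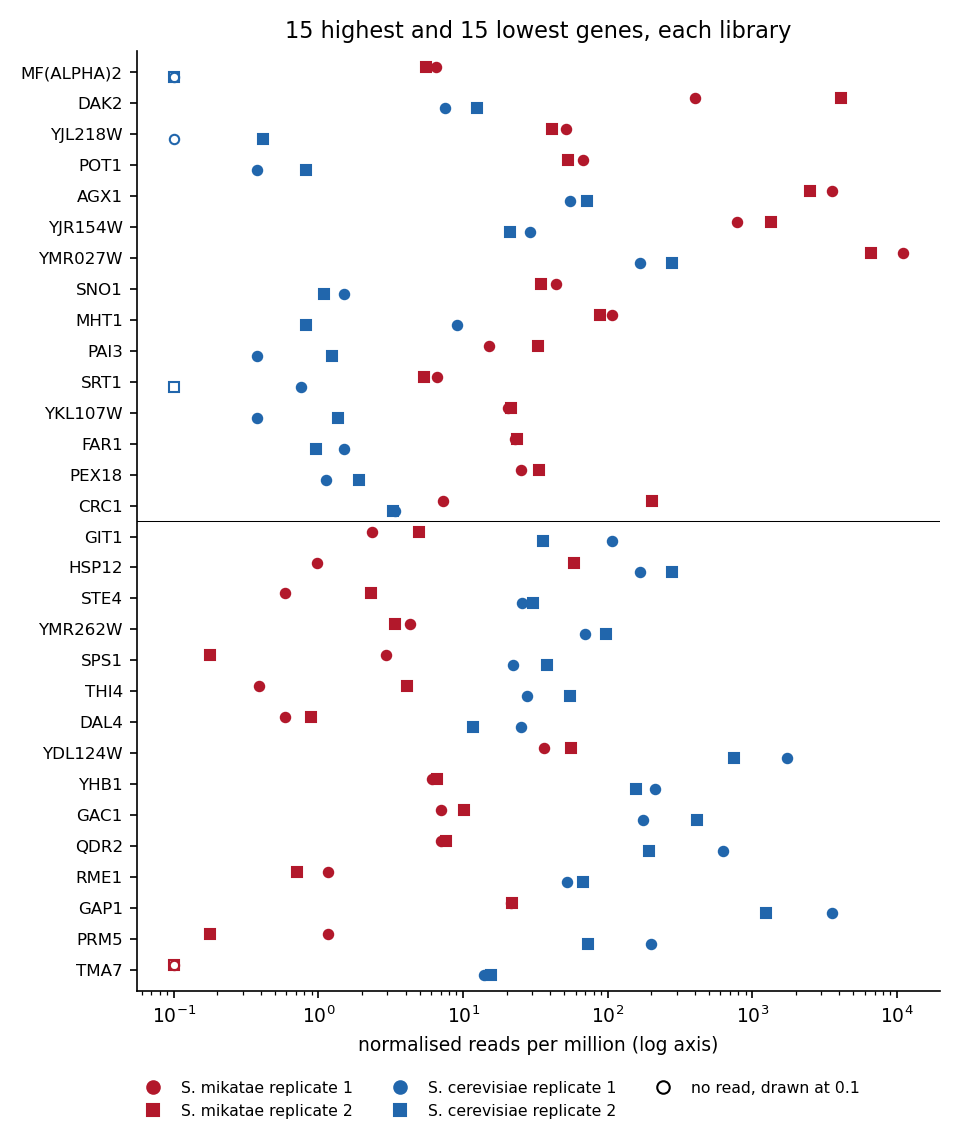
Level in each library, in CPM on a log axis, of the 15 genes with the highest and the 15 with the lowest log2 fold change, S. mikatae in red above S. cerevisiae in blue, circles for replicate 1 and squares for replicate 2. Open symbols at 0.1 stand for libraries with no read. In every gene shown the libraries of the 2 species do not overlap, which the choice of genes by fold change favours.

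Of the called genes, 3 had no read in either library of one species. TMA7, a protein associated with ribosomes, had 0 and 0 reads in S. mikatae, against 37 and 114 reads in S. cerevisiae. With a floor of 3 counts per library for S. mikatae its level was at least 26.4-fold lower there, comparing the means of the libraries. MF(ALPHA)2, the minor gene of the alpha mating pheromone, had 33 and 31 reads in S. mikatae, against 0 and 0 reads in S. cerevisiae, and was at least 7.77-fold higher in S. mikatae by the same floor. SFC1, the succinate-fumarate carrier of the mitochondrion, had 13 and 49 reads in S. mikatae, against 0 and 0 reads in S. cerevisiae, and was at least 7.31-fold higher. The bound for SFC1 rests on S. mikatae replicate 2: it was 2.25-fold on the day of replicate 1 and 21.1-fold on the day of replicate 2, and for MF(ALPHA)2 it was 5.72-fold and 13.4-fold on those days. These bounds cover counting error only.

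Genes for the use of poor nitrogen sources, which yeast turns down in the presence of good ones, differed in both directions but more often downward. Of 22 tested members of the list, 2 were higher in S. mikatae and 6 lower, with a median log2 fold change of -0.68, against 14.4% and 13.7% of all genes and a median of 0.00. Without the replicate term 0 higher and 4 lower genes remained called. The lower members include the permeases GAP1, PUT4 for proline and DAL4 for allantoin, the regulators GAT1 and DAL80, and DAL7, a malate synthase of allantoin use. The regulators bind the letters GATAAG in promoters, so the window of 250 bases before to 50 after the coding start was read from the S. cerevisiae reference. The letters stood in the windows of GAP1, DAL80, GAT1 and DAL7, which are shown, and there were 0 matches in those of PUT4 and DAL4, which are not.

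The sequences are those of RefSeq for S. cerevisiae in build R64, matched by locus name, and the 4 were picked because they hold the letters. Capitals mark GATAAG on either strand, 5' to 3' along the gene, and 3 of the matches of GAT1 overlap by 1 base.
GAP1, chrXI:514813-515112, plus strand: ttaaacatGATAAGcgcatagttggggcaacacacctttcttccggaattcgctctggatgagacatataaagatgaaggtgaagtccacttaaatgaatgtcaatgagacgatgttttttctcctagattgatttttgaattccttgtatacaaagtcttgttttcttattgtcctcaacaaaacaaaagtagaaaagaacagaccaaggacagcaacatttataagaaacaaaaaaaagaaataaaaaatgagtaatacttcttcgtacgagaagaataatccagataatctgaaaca
DAL80, chrXI:506648-506947, plus strand: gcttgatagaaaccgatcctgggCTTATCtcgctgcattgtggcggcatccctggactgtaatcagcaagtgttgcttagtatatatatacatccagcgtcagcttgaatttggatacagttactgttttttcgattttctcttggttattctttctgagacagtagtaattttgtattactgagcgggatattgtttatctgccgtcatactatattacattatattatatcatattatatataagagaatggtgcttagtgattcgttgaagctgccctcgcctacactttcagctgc
GAT1, chrVI:95716-96015, plus strand: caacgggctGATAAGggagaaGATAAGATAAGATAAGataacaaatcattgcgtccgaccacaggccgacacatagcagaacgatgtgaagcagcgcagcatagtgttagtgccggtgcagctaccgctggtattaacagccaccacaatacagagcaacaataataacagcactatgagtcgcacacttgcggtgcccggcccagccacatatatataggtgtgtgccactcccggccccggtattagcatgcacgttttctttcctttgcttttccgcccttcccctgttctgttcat
DAL7, chrIX:414630-414929, minus strand: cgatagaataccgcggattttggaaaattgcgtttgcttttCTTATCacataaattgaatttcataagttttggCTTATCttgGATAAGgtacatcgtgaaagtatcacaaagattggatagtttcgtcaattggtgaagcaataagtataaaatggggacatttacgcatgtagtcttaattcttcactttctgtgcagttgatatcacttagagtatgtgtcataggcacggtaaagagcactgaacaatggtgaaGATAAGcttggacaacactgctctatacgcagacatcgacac
The window held 1 match in GAP1, 1 in DAL80, 4 in GAT1 and 4 in DAL7. The last match of DAL7 lies after the coding start, inside the coding sequence. In the list as a whole 12 of 22 windows held the letters, against 15.0% of all tested genes with a window. Within the list the letters were not confined to lower genes. They stood also before DAL2, which was higher, and before DAL81, DAL82, GZF3, MEP2, MEP3, PUT2 and UGA3, which were not called. They were absent before CAR2, which was higher, and before DAL1, DUR3, GLN3, UGA1, UGA2, UGA4 and CAR1, which were not called. Of all tested genes the letters stood before 73 of 516 genes higher in S. mikatae and 79 of 493 lower. The windows of S. mikatae were not analysed here.

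GAT1 had 31.1 and 60.2 CPM in S. mikatae, against 417 and 110.2 CPM in S. cerevisiae, with a log2 fold change of -2.30 ± 0.50. DAL80 had 1.76 and 1.95 CPM in S. mikatae, against 28.9 and 4.12 CPM in S. cerevisiae (log2 fold change -2.59 ± 0.73), where the S. cerevisiae libraries lay far apart and both were above S. mikatae. DAL7 had 55.7 and 41.9 CPM in S. mikatae, against 331 and 169 CPM in S. cerevisiae, a log2 fold change of -2.29 ± 0.43 with an adjusted p of 2.99e-05, and was called also without the replicate term. GAT1 and DAL80 were not. DAL4 had 0.586 and 0.888 CPM in S. mikatae, against 25.2 and 11.7 CPM in S. cerevisiae (log2 fold change -4.48 ± 0.76). The higher members were DAL2, an allantoicase, with 121 and 146 CPM in S. mikatae, against 43.6 and 12.2 CPM in S. cerevisiae, and CAR2, an enzyme of arginine breakdown, with a log2 fold change of 1.74 ± 0.50.

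Permeases for amino acids were called in both directions. Of 19 tested members of that list, 5 were higher in S. mikatae and 4 lower (3 and 3 without the replicate term), and the median log2 fold change was -0.56. AGP1, a permease of broad substrate range, had 139 and 248 CPM in S. mikatae, against 10.9 and 10.8 CPM in S. cerevisiae (log2 fold change 4.12 ± 0.48, adjusted p = 2.53e-10). DIP5, the permease for dicarboxylic amino acids, had 225 and 1310.0 CPM in S. mikatae, against 62 and 55.7 CPM in S. cerevisiae, with a log2 fold change of 3.22 ± 0.47. The peptide transporter PTR2 had 26.2 and 106 CPM in S. mikatae, against 9.39 and 8.78 CPM in S. cerevisiae, and the glutamine permease GNP1 had 45.9 and 71.7 CPM in S. mikatae, against 8.27 and 23.1 CPM in S. cerevisiae. On the lower side stood GAP1, TAT2 for tryptophan with 3.71 and 19.9 CPM in S. mikatae, against 158 and 69 CPM in S. cerevisiae, PUT4 with 9.58 and 8.35 CPM in S. mikatae, against 82.7 and 42.4 CPM in S. cerevisiae, and STP2, a regulator of permease genes, with a log2 fold change of -1.17 ± 0.42 and overlapping libraries. The lysine permease LYP1, with 513 and 589 CPM in S. mikatae, against 413 and 544 CPM in S. cerevisiae, and the arginine permease CAN1, with 281 and 337 CPM in S. mikatae, against 711 and 246 CPM in S. cerevisiae, did not pass the test (adjusted p = 0.7 and 0.44).

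Genes for carbon sources other than sugars were mostly higher in S. mikatae where they were called. The list of gluconeogenesis, the glyoxylate cycle and nonfermentable carbon had 17 tested members, of which 9 were higher and 2 lower, with a median log2 fold change of 1.36. Without the replicate term 3 stayed called, all of them higher. The summed level of the list was 2585 and 15069 CPM in S. mikatae, against 4679 and 5312 CPM in S. cerevisiae. By this sum S. mikatae replicate 1 was below both S. cerevisiae libraries and only replicate 2 was above them. JEN1, the lactate and pyruvate transporter, had 149 and 821 CPM in S. mikatae, against 12.8 and 80.7 CPM in S. cerevisiae (log2 fold change 3.44 ± 0.43, adjusted p = 1.71e-09). In both species JEN1 was higher in replicate 2, and on each day the S. mikatae library was the higher one. STL1, the glycerol transporter, had 12.5 and 14.6 CPM in S. mikatae, against 0.376 and 1.51 CPM in S. cerevisiae, with a log2 fold change of 3.72 ± 0.76. FBP1, the fructose bisphosphatase of gluconeogenesis, had 34.8 and 78.1 CPM in S. mikatae, against 3.76 and 18.4 CPM in S. cerevisiae (log2 fold change 2.53 ± 0.48). PCK1, which makes phosphoenolpyruvate, had 29.9 and 50.8 CPM in S. mikatae, against 8.64 and 24.2 CPM in S. cerevisiae and a log2 fold change of 1.40 ± 0.47. The carnitine acetyltransferases YAT2 and CAT2 were higher, YAT2 with a log2 fold change of 2.06 ± 0.44, and the S. mikatae libraries of CAT2, at 22.5 and 331 CPM, overlapped those of S. cerevisiae, at 15 and 68.3 CPM. The direction of CAT2 rests on 1 library, since its log2 fold change was -0.90 without S. mikatae replicate 2. GUT1, the glycerol kinase, with 69.4 and 108 CPM in S. mikatae, against 227 and 372 CPM in S. cerevisiae, and ICL2, a methylisocitrate lyase, with 2.35 and 3.37 CPM in S. mikatae, against 13.1 and 18 CPM in S. cerevisiae, were lower.

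Genes for breakdown of fatty acids in the peroxisome were higher in S. mikatae wherever they were called. Of 13 tested members of the list, 7 were higher in S. mikatae and 0 lower, with a median of 1.26, and 2 of them, POT1 and MDH3, stayed called without the replicate term. MDH3, the peroxisomal malate dehydrogenase, had 596 and 689 CPM in S. mikatae, against 160.4 and 195 CPM in S. cerevisiae (log2 fold change 1.86 ± 0.38, adjusted p = 1.07e-04). FOX2, the multifunctional enzyme of the pathway, had 69.6 and 142 CPM in S. mikatae, against 18.4 and 51.3 CPM in S. cerevisiae, with a log2 fold change of 1.68 ± 0.43. The acyl-CoA synthetase FAA2, the transporter PXA2 and the thioesterase TES1 were higher by log2 fold changes of 1.26 ± 0.40, 1.26 ± 0.45 and 1.11 ± 0.38. POX1, the oxidase of the first step, had 11.7 and 32.5 CPM in S. mikatae, against 5.26 and 20.6 CPM in S. cerevisiae and did not pass (adjusted p = 0.22). The FAA2 libraries of the species overlapped, since its level in S. cerevisiae replicate 2 was above that in S. mikatae replicate 1.

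In the respiratory chain and ATP synthase, 12 of 28 tested genes were higher in S. mikatae and 2 lower, with a median log2 fold change of 0.84. With total counts 10 were higher and 0 lower. Without the replicate term 4 higher genes remained called. NDE2, an external NADH dehydrogenase, had 71.3 and 417 CPM in S. mikatae, against 13.1 and 19.6 CPM in S. cerevisiae (log2 fold change 3.49 ± 0.50, adjusted p = 7.95e-08). INH1, an inhibitor of ATP hydrolysis by the synthase, had 99.1 and 123 CPM in S. mikatae, against 34.6 and 11.7 CPM in S. cerevisiae, with a log2 fold change of 2.45 ± 0.47. COX7, a subunit of cytochrome c oxidase, had 69 and 88.6 CPM in S. mikatae, against 22.2 and 14 CPM in S. cerevisiae, and QCR10, a subunit of the cytochrome bc1 complex, had 147 and 109 CPM in S. mikatae, against 43.6 and 32.4 CPM in S. cerevisiae. RIP1, the iron-sulfur protein of that complex, had 352 and 512 CPM in S. mikatae, against 155 and 149.6 CPM in S. cerevisiae (log2 fold change 1.48 ± 0.39). The lower genes were ATP15 and ATP7, subunits of the synthase, at -1.22 ± 0.43 and -1.09 ± 0.42. The mitochondrial gene OLI1, which encodes subunit 9 of the synthase and is outside the list, had 1857 and 2332 CPM in S. mikatae, against 803 and 887 CPM in S. cerevisiae and a log2 fold change of 1.30 ± 0.34; it was named after its value was seen. Genes of this list are short, with a median coding length of 454 bases, and short genes as a class were called higher more often, which is given further on. The part of length in this result was not tested.

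**Figure D3:**
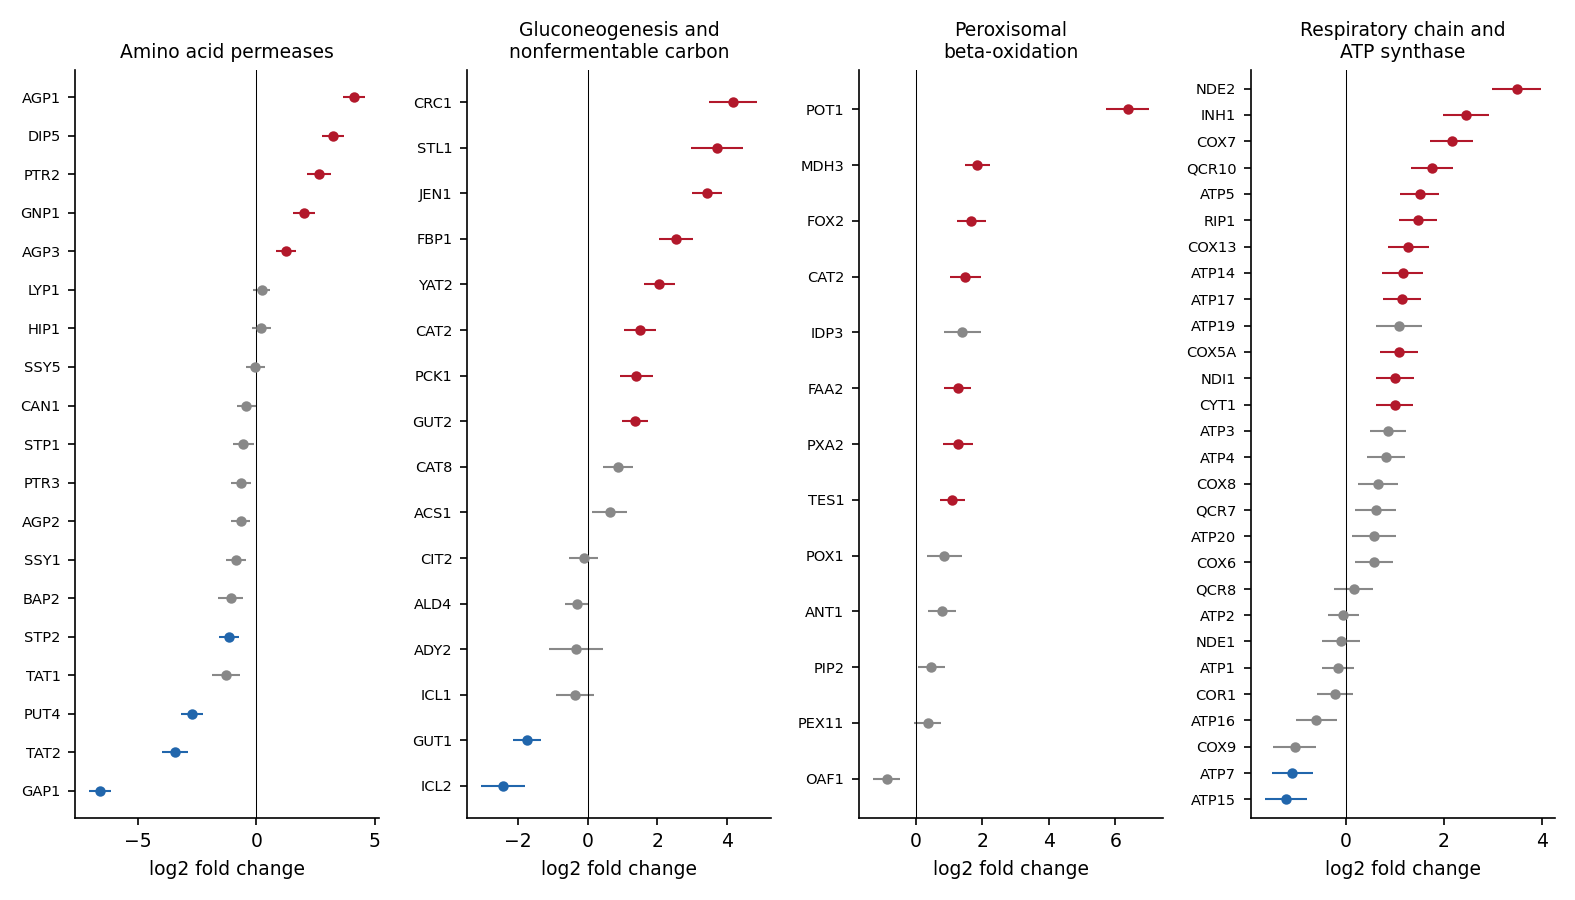
Fitted log2 fold change, positive where S. mikatae was higher, with its standard error as a bar, for the tested members of 4 lists, red where called higher, blue where called lower and grey where not called. The permeases spread to both sides, from GAP1 at -6.61 to AGP1 at 4.12, while members of the other 3 lists lie mostly right of 0; SFC1, which had no read in S. cerevisiae, is not drawn.

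Factors that assemble the respiratory complexes were called in both directions, with 5 of 27 higher, 4 lower (1 and 0 without the replicate term, 5 and 2 with total counts) and a median of -0.17. Among mitochondrial ribosomal proteins 13 of 59 were higher and 4 lower (4 and 0 without the replicate term), and their median was 0.06. The highest of them, MRPL24, had 27.6 and 20.6 CPM in S. mikatae, against 4.13 and 2.33 CPM in S. cerevisiae (log2 fold change 2.94 ± 0.61). The lowest, MRPL15, had 12.5 and 4.62 CPM in S. mikatae, against 39.4 and 37.3 CPM in S. cerevisiae, with a log2 fold change of -2.31 ± 0.52. In the TCA cycle and pyruvate dehydrogenase 2 of 18 tested genes were higher and 1 lower (0 and 0 without the replicate term, 2 and 1 with total counts), a share of 16.7% against 28.0% of all genes.

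The regulators of glucose sensing that were called were lower in S. mikatae. Of 10 tested members of the list of hexose transport and glucose sensing, 0 were higher and 4 lower, with a median log2 fold change of -0.34, and 2 lower genes stayed called without the replicate term. MIG1, the repressor that acts in glucose, had 20.9 and 21.5 CPM in S. mikatae, against 116 and 58.6 CPM in S. cerevisiae (log2 fold change -1.96 ± 0.44). MTH1, which represses hexose transporter genes, had 17.8 and 23.4 CPM in S. mikatae, against 73.6 and 76.7 CPM in S. cerevisiae, with a log2 fold change of -1.88 ± 0.43. MIG2 and RGT1, further repressors of the same pathways, were lower by log2 fold changes of -1.62 ± 0.39 and -1.27 ± 0.41. Of the 25 listed genes 10 were measured, and the reasons for which the others were not were not examined.

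Of 12 tested genes of glycolysis and fermentation, 2 were higher and 4 lower (0 and 0 without the replicate term, 1 and 1 with total counts). HXK2, the main hexokinase in glucose, had 1503 and 1743 CPM in S. mikatae, against 3272 and 5592 CPM in S. cerevisiae, with a log2 fold change of -1.40 ± 0.32. PFK1, PGI1 and FBA1 were lower by less than HXK2, at -0.99, -0.94 and -0.76. PGK1 had 36129 and 19206 CPM in S. mikatae, against 38618 and 20838 CPM in S. cerevisiae and did not pass the test (adjusted p = 0.79). In galactose use, GAL80, the repressor of the pathway, had 46.3 and 84 CPM in S. mikatae, against 202 and 321 CPM in S. cerevisiae (log2 fold change -2.03 ± 0.42), while the inducer GAL3 had 35.4 and 30.2 CPM in S. mikatae, against 9.39 and 6.72 CPM in S. cerevisiae (log2 fold change 2.04 ± 0.52).

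Vitamin genes carried some of the larger differences. In the biotin list 3 of 6 tested genes were higher in S. mikatae and 1 lower (1 and 1 without the replicate term, 2 and 1 with total counts). BIO4, the dethiobiotin synthetase, had 1849 and 918 CPM in S. mikatae, against 69.9 and 76.2 CPM in S. cerevisiae (log2 fold change 4.15 ± 0.41, adjusted p = 6.38e-13). BIO2, the biotin synthase, had 2223 and 936 CPM in S. mikatae, against 294 and 454 CPM in S. cerevisiae, with a log2 fold change of 1.98 ± 0.39. The biotin transporter VHT1 had 1372 and 926 CPM in S. mikatae, against 1163 and 160.3 CPM in S. cerevisiae, and its libraries overlapped between the species, with a log2 fold change of 1.38 ± 0.41 but -0.027 without S. cerevisiae replicate 2. VHR1, the activator of biotin uptake and synthesis genes, had 29.7 and 97.7 CPM in S. mikatae, against 378 and 878 CPM in S. cerevisiae and a log2 fold change of -3.41 ± 0.41. This regulator was thus lower while BIO4 and BIO2 were higher. The other 2 tested genes of the list were not called.

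Pyridoxine and thiamine genes were mostly higher in S. mikatae where they were called, with THI4 the 1 lower gene. Of 13 tested members 4 were higher and 1 lower (3 and 1 without the replicate term, 4 and 1 with total counts), with a median of 0.59. SNZ1 and SNO1, neighbours on chromosome XIII that encode the 2 proteins of a vitamin B6 synthase, had 167 and 526 CPM against 51.8 and 56.3 CPM for SNZ1 and 43.6 and 34.6 CPM against 1.5 and 1.1 CPM for SNO1, S. mikatae before S. cerevisiae, with log2 fold changes of 2.47 ± 0.44 and 4.90 ± 0.63. THI73, a putative transporter, had 207 and 532 CPM in S. mikatae, against 19.2 and 28.1 CPM in S. cerevisiae (log2 fold change 3.85 ± 0.46). In NAD synthesis 4 of 15 tested genes were higher and 2 lower (1 and 1 without the replicate term, 4 and 2 with total counts). BNA4, the kynurenine monooxygenase of synthesis from tryptophan, had 464 and 337 CPM in S. mikatae, against 89.8 and 46.8 CPM in S. cerevisiae (log2 fold change 2.61 ± 0.42). NPT1, which salvages nicotinic acid, had 81.5 and 71.2 CPM in S. mikatae, against 313 and 649 CPM in S. cerevisiae, with a log2 fold change of -2.56 ± 0.42, and TNA1, the nicotinic acid permease, had 195 and 345 CPM in S. mikatae, against 684 and 1423 CPM in S. cerevisiae.

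Sulfur and methionine genes were called in both directions at a share of 50.0%, against 28.0% of all genes. 7 of 26 tested genes were higher and 6 lower (3 and 1 without the replicate term, 5 and 2 with total counts), and the median was 0.31. MHT1, which makes methionine from S-methylmethionine, had 107 and 88.4 CPM in S. mikatae, against 9.02 and 0.823 CPM in S. cerevisiae (log2 fold change 4.90 ± 0.56, adjusted p = 8.32e-11). STR2, a cystathionine gamma-synthase, had 235 and 434 CPM in S. mikatae, against 23.3 and 32 CPM in S. cerevisiae, with a log2 fold change of 3.55 ± 0.45. MET8, which makes the sirohaem of sulfite reductase, had 210.3 and 128 CPM in S. mikatae, against 36.1 and 16.6 CPM in S. cerevisiae. The sulfate permease SUL1 had 38.5 and 43.2 CPM in S. mikatae, against 1460.3 and 187 CPM in S. cerevisiae and a log2 fold change of -3.68 ± 0.49; its S. cerevisiae libraries lay far apart and both were above S. mikatae. The sulfite reductase subunits MET5 and MET10 were lower, with log2 fold changes of -1.06 ± 0.37 and -1.05 ± 0.35, but their libraries overlapped between the species, and the log2 fold change of MET5 was 0.25 without S. cerevisiae replicate 1.

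In other synthesis lists a few genes were called, and these calls are not read as results about the pathways. Purine synthesis had 3 of 12 tested genes higher and 1 lower, and arginine synthesis had 2 of 11 higher and 2 lower. Aromatic amino acid synthesis had 3 of 13 higher and 1 lower. These counts are small, and 28.0% of all tested genes were called. In purine synthesis ADE8, a formyltransferase of the pathway, had 279 and 217 CPM in S. mikatae, against 24 and 22.2 CPM in S. cerevisiae (log2 fold change 3.41 ± 0.45), ADE4 was higher at 1.59 ± 0.40, and ADE3, which supplies folate one-carbon units, had 1634 and 1906 CPM in S. mikatae, against 7679 and 5297 CPM in S. cerevisiae (log2 fold change -1.85 ± 0.32). In arginine synthesis ARG3, the ornithine carbamoyltransferase, had 498 and 153 CPM in S. mikatae, against 96.9 and 11.3 CPM in S. cerevisiae (log2 fold change 3.04 ± 0.45), and CPA1, a subunit of carbamoyl phosphate synthetase, had 252 and 243 CPM in S. mikatae, against 882 and 767 CPM in S. cerevisiae (log2 fold change -1.73 ± 0.37). ARO8, an aromatic aminotransferase, had 776 and 670.4 CPM in S. mikatae, against 3289 and 2306 CPM in S. cerevisiae, with a log2 fold change of -1.93 ± 0.34. In lysine synthesis 1 of 4 tested genes, LYS9, was lower at -1.74 ± 0.36. In histidine synthesis 1 of 6 was higher, HIS6 at 1.29 ± 0.50. Pyrimidine synthesis had 3 of 11 tested genes higher and 0 lower, with URA1 at 1.34 ± 0.39, but none stayed called without the replicate term.

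Of 19 tested iron genes 4 were higher and 4 lower (2 and 0 without the replicate term, 3 and 2 with total counts). SIT1, a siderophore transporter, had 103 and 332 CPM in S. mikatae, against 34.9 and 39.8 CPM in S. cerevisiae (log2 fold change 2.33 ± 0.46), and FRE4, a ferric reductase, had 67.8 and 98.2 CPM in S. mikatae, against 12 and 23.2 CPM in S. cerevisiae. On the lower side were FET4, the low-affinity iron transporter, with 13.1 and 78.5 CPM in S. mikatae, against 83.4 and 221 CPM in S. cerevisiae, and FET3, the high-affinity oxidase, at -0.96 ± 0.38. The zinc-regulated gene ZPS1 had 119.8 and 132 CPM in S. mikatae, against 22.9 and 21.8 CPM in S. cerevisiae (adjusted p = 8.85e-06), and CUP2, the copper-responsive activator, was higher at 1.86 ± 0.43. Among phosphate genes 4 of 17 were higher and 2 lower (0 and 1 without the replicate term, 3 and 1 with total counts), and PHM8, a phosphatase of phosphate starvation, had 176 and 121 CPM in S. mikatae, against 16.2 and 47.3 CPM in S. cerevisiae.

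Markers of cell type were looked at because all cultures were labelled or described as diploid. Of the haploid-specific list 12 of 12 genes were measured and 11 tested, with 3 higher and 2 lower (1 and 2 without the replicate term, 2 and 2 with total counts). Their summed level was 169 and 190 CPM in S. mikatae, against 212 and 236 CPM in S. cerevisiae. RME1, the repressor of meiosis that haploids express, had 1.17 and 0.71 CPM in S. mikatae, against 52.2 and 67.2 CPM in S. cerevisiae (log2 fold change -5.96 ± 0.61, adjusted p = 1.73e-12). The paper expected high RME1 in this S. cerevisiae strain because of a variant known at a binding site of the gene. That variant was not tested here. STE4, the beta subunit of the pheromone G protein, had 0.586 and 2.31 CPM in S. mikatae, against 25.5 and 30.5 CPM in S. cerevisiae, with a log2 fold change of -4.35 ± 0.66. In the opposite direction FAR1, which arrests the cell cycle in response to pheromone, had 22.7 and 23.6 CPM in S. mikatae, against 1.5 and 0.961 CPM in S. cerevisiae (log2 fold change 4.29 ± 0.70), and the kinase FUS3 had 22.7 and 70.1 CPM in S. mikatae, against 2.63 and 19.2 CPM in S. cerevisiae. STE5 and GPA1, which act in the same pathway, had 13.5 and 17.6 CPM against 24 and 14.7 CPM and 1.76 and 3.02 CPM against 3.01 and 3.84 CPM, S. mikatae before S. cerevisiae, and did not pass the test (adjusted p = 0.74 and 0.65). STE18 had 0 reads in S. cerevisiae replicate 1 and was not tested.

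Of 4 tested genes specific to a cells 1 was higher and 1 lower (1 and 0 without the replicate term, 1 and 1 with total counts). The log2 fold changes of the 4 ran from -2.33 to 2.85. Their summed level was 59.2 and 104 CPM in S. mikatae, against 71.8 and 118 CPM in S. cerevisiae. The receptor gene STE2 had 2.93 and 12.8 CPM in S. mikatae, against 27 and 40.3 CPM in S. cerevisiae (log2 fold change -2.33 ± 0.54), the transporter gene STE6 had 41.4 and 60.7 CPM in S. mikatae, against 37.6 and 60.1 CPM in S. cerevisiae (adjusted p = 0.92), and MFA1 and MFA2 were not measured. Of 3 tested genes specific to alpha cells 1 was higher and 1 lower, and the summed level was 124 and 100.3 CPM in S. mikatae, against 110.5 and 100.3 CPM in S. cerevisiae. SAG1, the alpha-agglutinin, had 116 and 93.1 CPM in S. mikatae, against 91.3 and 87.7 CPM in S. cerevisiae and did not pass the test (adjusted p = 0.74). STE3, the receptor for a-factor, had 1.56 and 1.78 CPM in S. mikatae, against 19.2 and 12.6 CPM in S. cerevisiae, with a log2 fold change of -3.19 ± 0.68, opposite in direction to MF(ALPHA)2. In bulk RNA fewer cells of a type and less RNA per cell cannot be told apart, and the part of such cells in these differences was not tested.

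Genes induced by pheromone had 1 of 11 higher and 3 lower (0 and 1 without the replicate term, 1 and 3 with total counts). PRM5, a membrane protein that also responds to cell wall stress, had 1.17 and 0.178 CPM in S. mikatae, against 198 and 73.4 CPM in S. cerevisiae (log2 fold change -7.69 ± 0.62, adjusted p = 8.05e-17), and its S. mikatae values rest on 6 and 1 reads. For meiosis and sporulation 32 of 52 genes were measured and 18 had enough reads to test, with 3 higher and 4 lower (2 and 1 without the replicate term, 3 and 2 with total counts). SPS1, a kinase of spore formation, had 2.93 and 0.178 CPM in S. mikatae, against 22.2 and 38.3 CPM in S. cerevisiae (log2 fold change -4.45 ± 0.71). ZIP2 and MSH4, which act in crossing over, had 14.7 and 34.5 CPM against 1.5 and 2.88 CPM and 22.5 and 24.9 CPM against 5.26 and 2.33 CPM, S. mikatae before S. cerevisiae, with log2 fold changes of 3.46 ± 0.65 and 2.77 ± 0.61. The inducer of meiosis IME2 had 31.7 and 18.1 CPM in S. mikatae, against 27.8 and 13 CPM in S. cerevisiae and did not pass the test (adjusted p = 0.65). The list's summed level was 233 and 264 CPM in S. mikatae, against 257 and 236 CPM in S. cerevisiae, so the species overlapped.

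Translation factors were mostly lower where they differed, with 1 of 24 tested genes higher and 10 lower (0 and 2 without the replicate term, 1 and 5 with total counts), and a median log2 fold change of -0.26. Without the replicate term 2 lower genes, FUN12 and YEF3, remained called. YEF3, the elongation factor 3 of fungi, had 6049 and 4988 CPM in S. mikatae, against 24692 and 17646 CPM in S. cerevisiae (log2 fold change -1.93 ± 0.28, adjusted p = 9.78e-08). FUN12, initiation factor 5B, had 187 and 285 CPM in S. mikatae, against 859 and 946 CPM in S. cerevisiae, with a log2 fold change of -1.96 ± 0.37. CDC33, the cap-binding protein, had 419 and 505 CPM in S. mikatae, against 146 and 174 CPM in S. cerevisiae and was the only member higher (log2 fold change 1.53 ± 0.38). Ribosome biogenesis had 4 of 76 tested genes higher and 9 lower (1 and 1 without the replicate term, 3 and 5 with total counts), 17.1% called against 28.0% of all genes, with a median of -0.27. NOP56, a core protein of small nucleolar RNPs, had 108 and 166 CPM in S. mikatae, against 457 and 559 CPM in S. cerevisiae, and ENP2, a factor of the small subunit, had 73.5 and 108 CPM in S. mikatae, against 26.3 and 21 CPM in S. cerevisiae. The largest subunits of RNA polymerase I, RPA190 and RPA135, were lower, with log2 fold changes of -1.55 ± 0.35 and -1.36 ± 0.36.

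Stress genes were called in both directions. Heat shock proteins and chaperones had 4 of 32 higher and 10 lower (0 and 3 without the replicate term, 4 and 5 with total counts), with a median of -0.48. HSF1, the heat shock transcription factor, had 12.7 and 7.64 CPM in S. mikatae, against 87.9 and 39 CPM in S. cerevisiae (log2 fold change -2.57 ± 0.46). CUR1, a sorting factor for misfolded proteins, had 7.04 and 3.55 CPM in S. mikatae, against 42.8 and 71.9 CPM in S. cerevisiae, with a log2 fold change of -3.44 ± 0.52. In the list of general stress genes 7 of 23 were higher and 2 lower (4 and 2 without the replicate term, 7 and 2 with total counts). DDR2, YGP1, RTN2 and HOR7 were higher, at log2 fold changes of 3.36 ± 0.47, 2.87 ± 0.35, 2.95 ± 0.42 and 2.86 ± 0.37. MSN2, an activator of the general stress response, had 46.1 and 67.8 CPM in S. mikatae, against 187 and 309 CPM in S. cerevisiae (log2 fold change -2.10 ± 0.43). Among oxidative stress genes SRX1, a sulfiredoxin, had 32.2 and 26.3 CPM in S. mikatae, against 1.13 and 2.2 CPM in S. cerevisiae (log2 fold change 4.02 ± 0.64), and GRX1, a glutaredoxin, had 152 and 114 CPM in S. mikatae, against 25.9 and 16.9 CPM in S. cerevisiae.

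The called genes of 2 lipid lists differed in direction, at shares near the 28.0% of all genes. Ergosterol synthesis had 6 of 22 tested genes higher and 0 lower, 27.3% called, with a median of 0.72. ERG27, a ketoreductase of the C-4 demethylation complex, had 619.5 and 516 CPM in S. mikatae, against 96.6 and 108 CPM in S. cerevisiae (log2 fold change 2.47 ± 0.40, adjusted p = 1.38e-06), and ERG26 of the same complex had 704 and 611 CPM in S. mikatae, against 205 and 150.1 CPM in S. cerevisiae. Both stayed called without the replicate term, and they alone did in that list. Fatty acid and phospholipid synthesis had 2 of 26 higher and 7 lower (0 and 3 without the replicate term, 1 and 6 with total counts). The share called was 34.6% and the median -0.59. That list also holds transporters, among them GIT1, its lowest member at -4.07. OPI3, which makes phosphatidylcholine by methylation, had 588 and 639 CPM in S. mikatae, against 5020.4 and 5607 CPM in S. cerevisiae (log2 fold change -3.11 ± 0.34, adjusted p = 2.36e-11). INO1, the inositol phosphate synthase, had 10570.2 and 7991 CPM in S. mikatae, against 28218 and 18346 CPM in S. cerevisiae, with a log2 fold change of -1.31 ± 0.27, and the inositol transporter ITR1 was lower at -1.54 ± 0.30. FAA1, the main acyl-CoA synthetase for imported fatty acids, had 172 and 272 CPM in S. mikatae, against 1794 and 815 CPM in S. cerevisiae.

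Efflux pumps for drugs, boron and arsenic were lower wherever they were called. Of 13 tested members 0 were higher and 6 lower, with a median log2 fold change of -1.13, and 3 lower genes stayed called without the replicate term. TPO4, a polyamine exporter, had 569.7 and 420.0 CPM in S. mikatae, against 1613 and 6924 CPM in S. cerevisiae (log2 fold change -2.77 ± 0.40). YOR1, an ABC transporter, had 400.5 and 460.3 CPM in S. mikatae, against 999 and 4366 CPM in S. cerevisiae, with a log2 fold change of -2.28 ± 0.39. In both genes S. cerevisiae replicate 2 was well above replicate 1, and both were above S. mikatae. SNQ2, another ABC transporter, had 510.1 and 551 CPM in S. mikatae, against 1221 and 1983 CPM in S. cerevisiae (log2 fold change -1.55 ± 0.36).

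In the lists of 2 protein complexes genes were called in both directions, at a share of 33.3% in each, near the 28.0% of all genes. In the proteasome 4 of 30 tested genes were higher and 6 lower (0 and 2 without the replicate term, 3 and 3 with total counts). RPT2, an ATPase of its base, had 39.3 and 59.7 CPM in S. mikatae, against 342 and 543 CPM in S. cerevisiae (log2 fold change -3.15 ± 0.42, adjusted p = 1.25e-08), and RPN8, a subunit of its lid, had 16.6 and 20.1 CPM in S. mikatae, against 90.5 and 106 CPM in S. cerevisiae. RPT4, another ATPase of the base, had 282 and 347 CPM in S. mikatae, against 107 and 105 CPM in S. cerevisiae and was higher (log2 fold change 1.56 ± 0.40). In the vacuolar ATPase 1 of 15 were higher and 4 lower (1 and 2 without the replicate term, 1 and 3 with total counts). VMA3, the proteolipid of its membrane ring, had 227 and 243 CPM in S. mikatae, against 1029 and 967 CPM in S. cerevisiae, with a log2 fold change of -2.09 ± 0.37, and VPH2, which assembles the complex, had 73.9 and 76.7 CPM in S. mikatae, against 19.2 and 17.3 CPM in S. cerevisiae. Of 22 tested autophagy genes 6 were higher and 0 lower (27.3% called), none of them called without the replicate term. Enzymes of the cell wall included EXG1, the major glucanase, with 544 and 352 CPM in S. mikatae, against 4218 and 2152 CPM in S. cerevisiae (log2 fold change -2.78 ± 0.35), and DSE2, a daughter cell protein, with 253 and 184 CPM in S. mikatae, against 1037 and 946 CPM in S. cerevisiae (log2 fold change -2.20 ± 0.37). DNA replication had the lowest share called of the lists with 10 or more tested members, 12.8%.

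**Figure D4:**
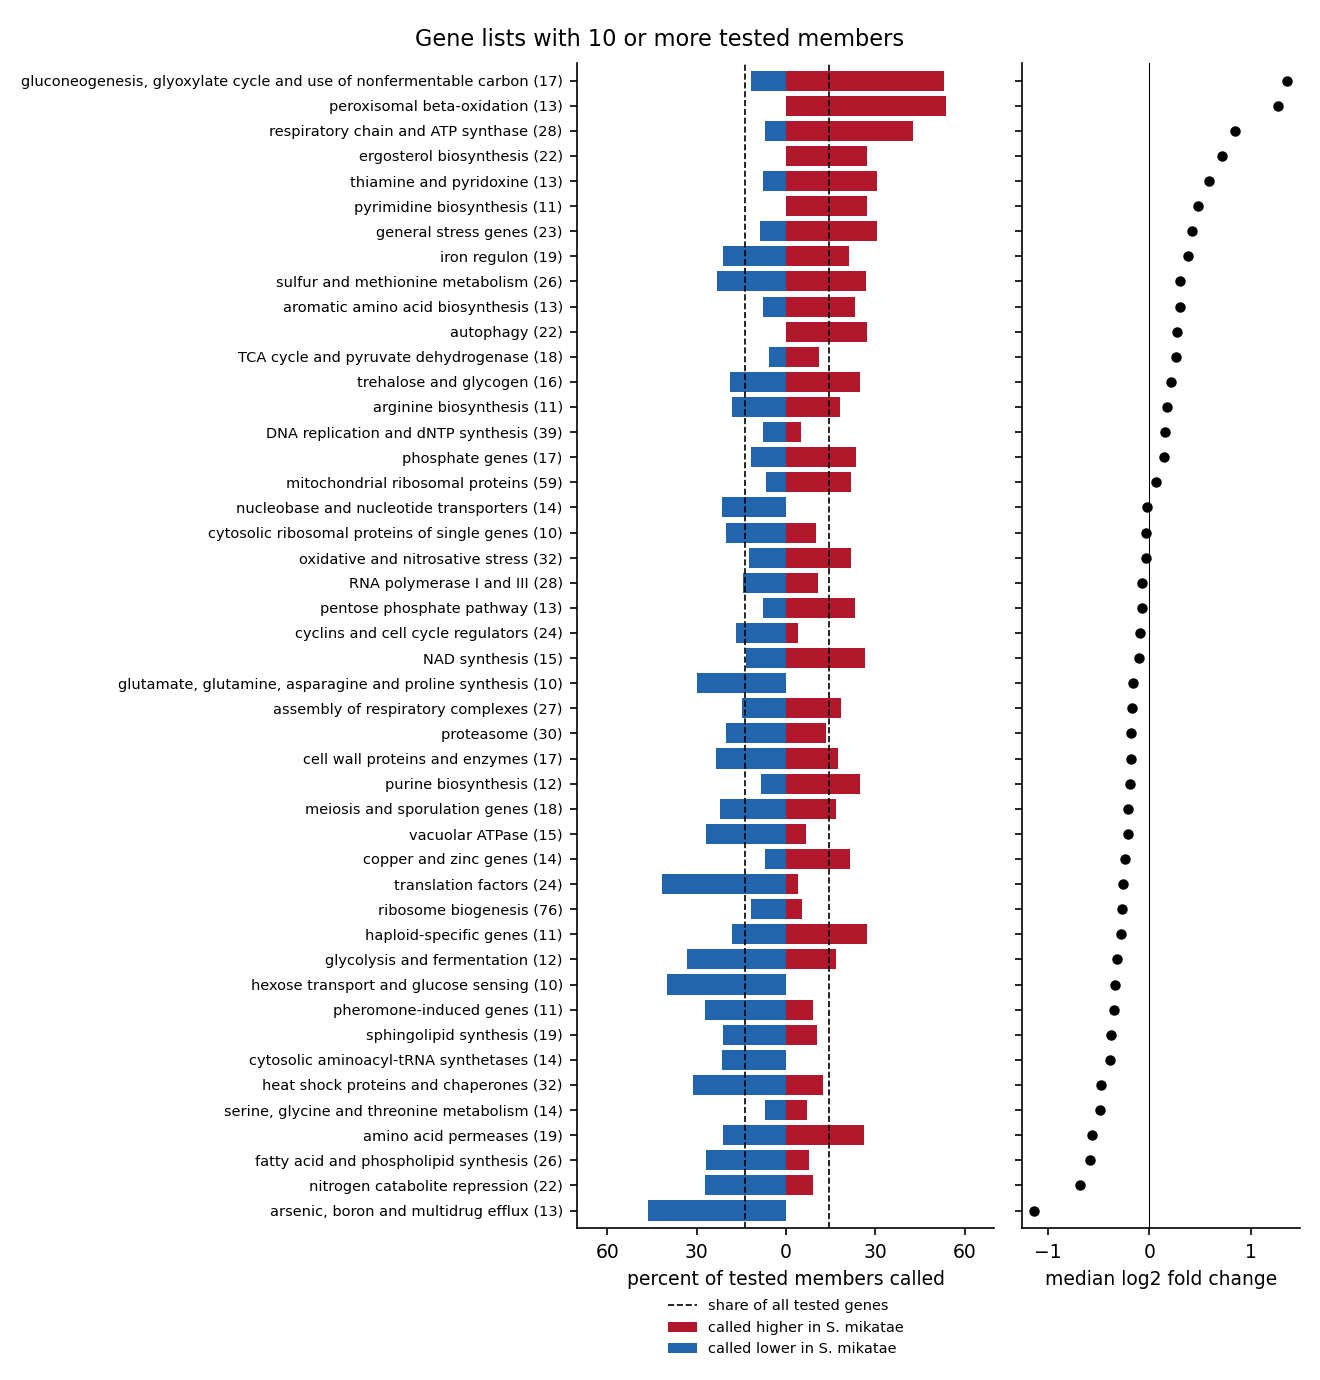
For each of 46 gene lists with 10 or more tested members (number in brackets), the left panel gives the percent of tested members called higher in S. mikatae (red, to the right) and lower (blue, to the left), with dashed lines at 14.4% and 13.7%, the shares of all tested genes. The right panel gives the median log2 fold change, which runs from 1.36 for gluconeogenesis and nonfermentable carbon to -1.13 for efflux pumps.

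The share of genes called varied with coding length, level and position, given here as a description. The tested genes were cut into 5 groups of nearly equal size. Among those with the shortest coding length, 153 to 708 bases, 20.6% were higher in S. mikatae and 11.3% lower, and the median log2 fold change was 0.27. Among the longest, 2046 to 8019 bases, 7.20% were higher and 15.1% lower, and the median was -0.18. The SD of the log2 fold change was 1.41 among the shortest and 0.94 among the longest. By level, 21.7% of the group with the lowest mean CPM and 33.5% of the group with the highest were called. On chromosomes the share called ran from 24.2% on V to 31.7% on XV. Within 30 kb of a chromosome end 45 of 112 tested genes were called, 40.2%, against 27.7% of the other 3500, and 29 of them were higher and 16 lower.

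**Figure D5:**
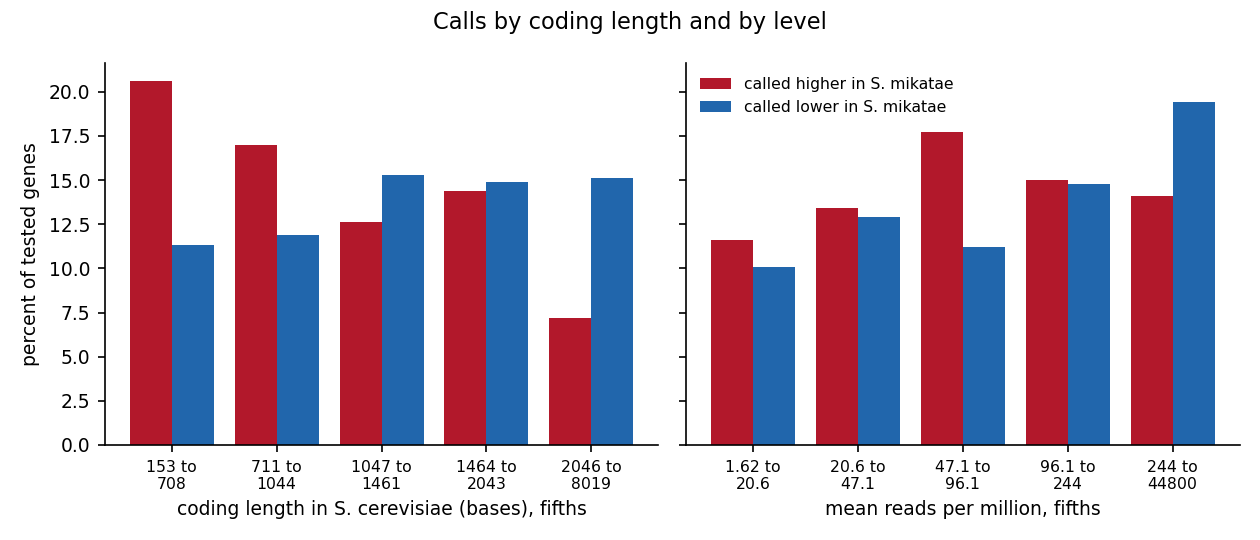
Percent of tested genes called higher (red) and lower (blue) in S. mikatae in 5 groups of nearly equal size by coding length in S. cerevisiae (left) and by mean CPM over the 4 libraries (right). The share called higher was 20.6% among the shortest genes and 7.20% among the longest.

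Adjacent genes that both differed did so about as often in the same as in opposite directions. In 2248 pairs of neighbouring genes that were both tested, both were called in 175, and in 91 of these (52.0%) both differed in the same direction. The share was 52.6% for pairs transcribed away from each other, 54.3% for pairs in tandem and 48.2% for pairs facing each other. Runs of 3 or more adjacent measured genes called in the same direction numbered 21, of which 16 had 3 genes, 4 had 4 and 1 had 5. Genes that were not measured can lie between members of a run. The number of runs to be met without any clustering was not estimated. The run of 5, lower in S. mikatae, lay on chromosome IV between bases 359825 and 368211 in sacCer2 and held MCH1, PBP4, LHP1, KNH1 and STP4, with log2 fold changes from -2.80 to -1.14. Near the left end of chromosome VI the permease gene AGP3, the aquaglyceroporin gene AQY3 and DAK2 were all higher, at 1.26 ± 0.42, 2.84 ± 0.49 and 7.18 ± 0.52. On chromosome VIII PEX18 stood beside YAP1801, MPC2 and SOL3, which were higher at 1.15 ± 0.41, 1.09 ± 0.39 and 1.35 ± 0.38. The libraries of SOL3 overlapped between the species.

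Short motifs in the S. cerevisiae windows of 250 bases before to 50 after the coding start were counted on both strands for 17 sets of letters. TATAAA, the letters of the TATA box, stood in 50.2% of windows of genes higher in S. mikatae and 45.2% of those lower, against 44.2% of all. AGGGG, the core of the stress element, stood in 24.6% and 24.5%, against 21.7% of all. TGAAACA, the pheromone element, stood in 9.11% of those higher and 5.27% of those lower, against 7.55% of all. A match is a description of letters and not a bound site.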

How the data were processed

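RNA of 2 cultures each of S. mikatae and S. cerevisiae was measured, 1 library a culture. The deposited values are read counts: the authors placed SOLiD reads by MOSAIK on each species' genome (sacCer2 for S. cerevisiae, a draft assembly for S. mikatae), and counted uniquely aligned and all aligned reads per annotated gene, with no normalization and no pooling. Coordinates of genes are in sacCer2, and windows of sequence are in R64, matched by locus name. The test was edgeR's quasi-likelihood F test (edgeR 4.0.16, R 4.3.3) after TMM scaling, with the replicate number as a term, because samples of one number were prepared on the same day; across genes the change from replicate 1 to 2 had a Pearson correlation of 0.39 between the species. Alternatives were DESeq2 1.42.0, limma voom 3.58.1, the study's chi-square rebuilt from its Methods, other scalings, filters and gene sets, and leaving out each library. Scripts were tested on simulated data. Named genes are the 15 highest and 15 lowest fold changes among called genes with at least 30 reads in each library of the higher species and the same direction on both days, genes without reads in one species, members of 55 lists, and members of runs. Members and lists were chosen with earlier results of these data known. Where a species had no read, 3 counts per library stood in as a floor, which covers counting error only. Symbols were matched for 3667 of 3696 genes.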

Additional observations from a re-analysis of the deposited data

Results flagged for a closer look

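One tested gene differed at least 4-fold in opposite directions on the 2 days. NRG2, a repressor that acts in glucose, had 4.3 and 13.5 CPM in S. mikatae, against 20.3 and 0.823 CPM in S. cerevisiae. Its log2 ratio of S. mikatae over S. cerevisiae was -2.22 on the day of replicate 1 and 3.93 on the day of replicate 2. The difference between the days rests on 1 library of each species a day and was not tested, and the gene did not pass the test of the species (adjusted p = 0.65). Its fitted log2 fold change was 0.60, and its sign turned without the replicate block, at -0.17.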

How the results depend on the processing

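Without the replicate block 230 genes were called (134 higher and 96 lower), 92 of the 972 tested list members among them against 323 with it, and of the genes followed only NRG2, which was not called, changed sign in this setting (0.60 and -0.17). With all 8 libraries on genes of all 4 species 615 of 2707 were called (323 higher and 292 lower), and with the 4 libraries on those genes, chosen after seeing the data, 396 of 2692 (207 higher and 189 lower), with 137 list members. Total counts in place of TMM gave 259 lower genes. The study's chi-square rebuilt, at p under 0.01, called 708 of 3696 genes, 309 of them lower. Of these 708 calls, 545 were shared with the 1013. Of the 382 genes followed under it, 185 lost their call. Leaving out 1 library at a time, with the lone library assumed to vary like the others, gave 43 to 267 genes, 33 to 141 higher and 10 to 126 lower. The other settings, among them DESeq2 with 857 genes, limma voom with 1007, all aligned reads with 917 and no filter with 1013, stayed within 1.5 times of 1013. Of the called genes named or in lists, 6 changed sign when 1 library was left out: VHT1 (log2 fold changes -0.027 to 2.84), RPS3 (-0.030 to 2.05) and GPH1 (-3.13 to 0.65), with the end of opposite sign without S. cerevisiae replicate 2, SWE1 (-2.95 to 0.16, opposite also at 0.09 without S. mikatae replicate 2) and MET5 (-2.29 to 0.25) without S. cerevisiae replicate 1, and CAT2 (-0.90 to 3.54) without S. mikatae replicate 2. NRG2 ranged from -1.23 to 3.41 and was negative without S. mikatae replicate 2 and, at -1.19, without S. cerevisiae replicate 2. The causes were not tested. Depth limits genes with few reads, and 84 measured genes had too few to test.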
